A study of Mus musculus with 5 samples.

Results

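On 5 arrays of cultured mouse optic nerve, 131 probe sets varied together between replicates of 1 group. They include genes of the corneal and conjunctival epithelium, among them the 5 markers given in advance: Krt12, Krt5, Krt6a, Krt15 and Muc4. Of the 106 genes they name, 40 stand in lists of surface epithelium genes. The arrays measured RNA of optic nerves from C57BL/6 mice of postnatal days 35 to 45 that had been kept for 3 days in organotypic culture with LY294002, an inhibitor of phosphoinositide 3-kinase. The labels also spell the compound LY295002. By the labels, L-LY29 (3 arrays) received 0.5 µM and H-LY29 (2 arrays) 50 µM. For adult nerves the paper's methods give a low dose between the 0.5 µM and the 50 µM of the labels. The sources do not settle which low dose was used on these arrays. Both groups are wild-type nerves in culture, and no control array was analysed here. Per the methods, adult nerves were taken out with the retina intact, and were then freed of the arachnoid and of attached tissue before culture. The sources do not say which nerves or how many mice went into each array.

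The members were chosen on the L-LY29 arrays alone. A member is a probe set naming 1 gene with its log2 signal highest on L-LY29 replicate 1, next on replicate 3 and lowest on replicate 2, with replicate 1 at least 1.5 log2 units above replicate 2 and an L-LY29 mean of at least 6. These conditions were met by 131 of 34958 probe sets naming 1 gene, and they name 106 of 18194 genes. The order alone held for 3817 probe sets (10.9%) and order with range for 175. Range and mean without the order held for 148, while the opposite difference, replicate 2 above replicate 1 by as much, held for 1. The differences between the L-LY29 replicates are therefore what chose the members and are given as a description, with no test. The H-LY29 levels took no part in the choice. The L-LY29 mean did, which by itself favours members that lie above H-LY29.

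The surface of the eye is covered by a stratified, non-keratinised epithelium. Its basal cells carry the keratins Krt5, Krt14 and Krt15 and sit on a basement membrane through hemidesmosomes, its suprabasal cells in the cornea carry Krt12 and in the conjunctiva Krt4 and Krt13, and its outermost cells carry membrane mucins and close tight junctions against the tear film. The optic nerve itself is known for oligodendrocytes, astrocytes, microglia and vessels around axons, not for a stratified epithelium. The epithelial description held for only some of the members: 40 of the 106 genes stand in lists of surface epithelium genes. Of the other 66, 24 read higher on both H-LY29 arrays than on any L-LY29 array, where 39% of all probe sets did so. Among these 24 are Aqp4 and Mlc1 of astrocytes and Tagln of smooth muscle. The set is therefore called by its rule and its given markers.

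The promoters of the given markers are shown because these genes moved together across replicates. RefSeq windows (GRCm38.p6) of 300 bases, 250 before and 50 after the transcription start, were at hand for 75 of the 106 genes. Among the 5 markers they were at hand for Krt12, Krt5 and Muc4. Capitals mark matches to any of the 6 motifs searched on both strands, which are TATAAA (the core-promoter box), TGANTCA (AP-1), AACCNGGTT (grainyhead), GGGNGTGG (KLF), AGGAAG (ETS core) and CACCTG (E-box). The Krt12 window is chr11:99422210-99422509 on the minus strand, the Krt5 window chr15:101712856-101713155 on the minus strand and the Muc4 window chr16:32735636-32735935 on the plus strand.
Krt12: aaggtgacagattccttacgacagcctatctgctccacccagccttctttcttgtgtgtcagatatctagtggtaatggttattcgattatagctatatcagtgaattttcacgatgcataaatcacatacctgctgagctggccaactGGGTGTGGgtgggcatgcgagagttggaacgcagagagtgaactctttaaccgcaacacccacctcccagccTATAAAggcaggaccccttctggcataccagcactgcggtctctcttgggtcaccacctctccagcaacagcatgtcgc
Krt5: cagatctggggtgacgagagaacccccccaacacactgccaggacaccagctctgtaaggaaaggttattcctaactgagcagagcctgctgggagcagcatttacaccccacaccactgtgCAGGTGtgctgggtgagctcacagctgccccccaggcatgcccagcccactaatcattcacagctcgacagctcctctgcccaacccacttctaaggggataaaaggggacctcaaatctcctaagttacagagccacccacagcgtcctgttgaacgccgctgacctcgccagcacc
Muc4: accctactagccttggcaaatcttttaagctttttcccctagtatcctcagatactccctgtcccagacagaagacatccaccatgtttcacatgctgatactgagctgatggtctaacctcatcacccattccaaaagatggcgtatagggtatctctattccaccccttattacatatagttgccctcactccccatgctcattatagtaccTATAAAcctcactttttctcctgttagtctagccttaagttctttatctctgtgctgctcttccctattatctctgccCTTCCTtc
A TATA box began 29 bases before the start of Krt12 and 36 bases before that of Muc4. The Krt12 window also held the KLF letters, the Krt5 window the E-box on the reverse strand, and the Muc4 window the ETS core on the reverse strand after the start. Over the 88 windows of member genes, the E-box letters stood in 37.5% against 20.2% of all 32851 windows, KLF in 34.1% against 17.6%, AP-1 in 13.6% against 7.81%, the TATA box in 18.2% against 13.6%, the ETS core in 31.8% against 35.4% and the grainyhead motif in 0 against 0.27%. These shares were not tested, and a match of letters is not a binding site.

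The arrays differ in ways that bear on these values. Poly-A control RNAs, added before labelling, averaged 10.45, 9.97 and 10.23 on L-LY29 replicates 1, 2 and 3 (24 probe sets), against 3.17 on each H-LY29 array. All 24 of them had the members' order of replicates 1, 3 and 2, with a median of 0.47 between replicates 1 and 2 (0.22 to 0.79). The hybridisation controls, added after labelling, had a median difference of 0 between these replicates. The part of the poly-A difference in the members' order was not tested. Between the groups the poly-A difference falls together with dose. Dose and whatever set these controls apart cannot be told apart in any L-LY29 against H-LY29 difference given here. Over all probe sets naming 1 gene the medians were 5.83 to 5.85 on the L-LY29 arrays and 6.21 and 6.26 on the H-LY29 arrays. Values equal to the last digit on replicates 1 and 2 of L-LY29 occurred at 6115 of these probe sets, and on both H-LY29 arrays at 1341, of which 3 are members. In bulk tissue, fewer cells of a type and less RNA per cell cannot be told apart.

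Over the 131 member probe sets the median log2 signal was 9.06, 6.47 and 7.53 on L-LY29 replicates 1, 2 and 3, against 5.58 and 5.39 on H-LY29 replicates 1 and 2. L-LY29 replicate 1 stood above replicate 2 by a median of 5.49-fold (2.83 to 27.4) and above replicate 3 by 2.73-fold, and replicate 3 stood above replicate 2 by 1.997-fold. Between the H-LY29 arrays the median absolute difference was 0.30 over the members and 0.19 over all probe sets, with 1.58 for Epcam and 1.51 for Cldn23, and neither was the higher one for most members: H-LY29 replicate 1 was above replicate 2 for 65 of 131 (all probe sets, 51.3%).

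**Figure D1:**
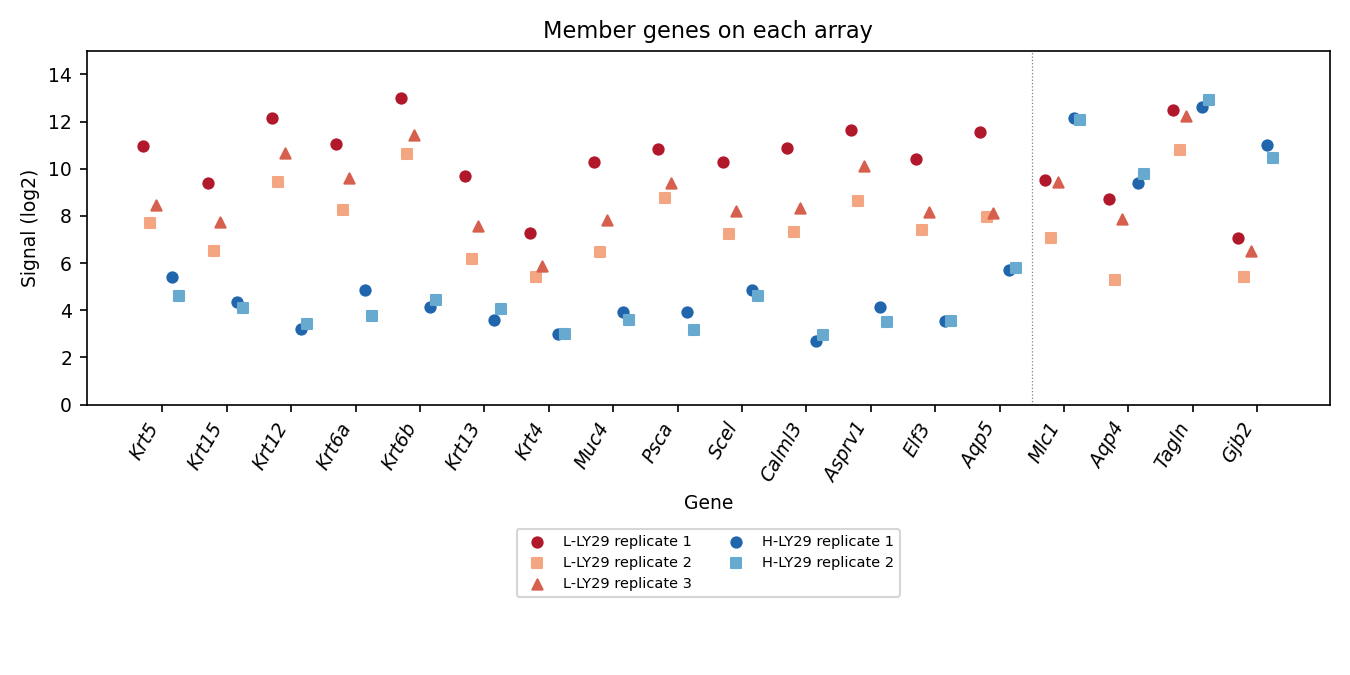
Log2 signal (vertical axis) of 18 member genes (horizontal axis) on each L-LY29 array (reds) and each H-LY29 array (blues). Left of the dotted line are genes of surface epithelium, where all L-LY29 points lie above both H-LY29 points, and right of it are 4 genes with bright H-LY29 arrays, where Mlc1 for example reads 9.53, 7.07 and 9.45 on L-LY29 and 12.17 and 12.05 on H-LY29.

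Krt12, the keratin of differentiated corneal epithelium, read 12.14, 9.43 and 10.65 on L-LY29 replicates 1, 2 and 3, against 3.19 and 3.40 on the H-LY29 arrays. Both H-LY29 values were inside the span of the poly-A control probe sets on those arrays (2.39 to 4.14), so the size of the difference is not read as a fold. Its other member probe set read 12.20, 9.73 and 11.02 on L-LY29, against 4.56 and 5.26 on H-LY29, which lie above that span. Aldh3a1, the corneal crystallin-like aldehyde dehydrogenase, read 9.79, 6.26 and 7.22 on L-LY29, against 4.42 and 4.63 on H-LY29. Slurp1, a secreted Ly6 protein of the corneal surface, read 11.18, 8.63 and 9.18, against 4.55 and 4.24. Lypd2, of the same Ly6 family, read 11.87, 9.33 and 9.997, against 4.32 and 4.47. In each of these genes every L-LY29 array lay above both H-LY29 arrays, as in 35.6% of all probe sets. Of 10 measured genes of the corneal list 5 are members, the others being Pax6, Clu, Tkt, Krt76 and Aldh1a1. Of these, 3 were bright on every array and without the members' order. Clu read 12.14, 11.07 and 12.31 on L-LY29, against 13.20 and 13.10 on H-LY29. Tkt read 12.31, 12.06 and 12.055, against 12.34 and 12.32, and Aldh1a1 read 11.32, 11.13 and 11.42, against 10.71 and 10.65. Pax6, the transcription factor of eye development, read 7.72, 5.87 and 5.78 on L-LY29, against 5.96 on both H-LY29 arrays, so that L-LY29 replicate 1 alone was high.

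Of the basal layer only part was seen. Krt5, the type II keratin of basal cells, read 10.98, 7.72 and 8.44 on L-LY29, against 5.39 and 4.59 on H-LY29. Krt15, a keratin of limbal and basal cells, read 9.39, 6.51 and 7.73, against 4.36 and 4.09. Both had every L-LY29 array above both H-LY29 arrays (all probe sets, 35.6%). Sfn (stratifin), a scaffold protein of stratified epithelium, read 7.30, 4.99 and 6.05 on L-LY29 and 6.45 and 7.39 on H-LY29, with overlap. Other genes of the basal list went different ways, some of them bright and alike on the L-LY29 arrays. Itgb4 read 9.31, 9.22 and 9.35 on L-LY29, against 7.02 and 7.24 on H-LY29. Itga6 read 9.26, 9.10 and 9.14, against 10.90 and 10.70. Ifitm3 read 10.97, 11.21 and 11.41, against 12.76 and 12.86. Trp63, Krt14 and Col17a1 gave little signal. Trp63, the master regulator of stratified epithelium, read 4.91, 4.84 and 4.84 on L-LY29, against 4.68 and 4.53 on H-LY29. Krt14, the usual partner of Krt5, read 5.83, 4.28 and 5.59, against 5.42 and 3.73, and the hemidesmosomal collagen Col17a1 read 3.65, 3.17 and 3.48, against 3.28 and 2.89. Of 14 measured genes of the basal and limbal list 3 are members, and of 11 of the hemidesmosome and basement membrane list 0. A probe set with low signal on every array does not show that its RNA was absent.

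Keratins that skin and cornea induce during hyperproliferation and wound healing were members too. Krt6a read 11.07, 8.27 and 9.60 on L-LY29, against 4.86 and 3.76 on H-LY29. Krt6b was the brightest member on L-LY29 replicate 1 and read 12.98, 10.62 and 11.42, against 4.13 and 4.45. Krt16, their type I partner, read 9.44, 6.30 and 8.20, against 4.23 and 3.85. Every L-LY29 array lay above both H-LY29 arrays in the 3 genes (all probe sets, 35.6%). Krt6a and Krt6b are closely similar copies, and their probe sets may each read both RNAs. Their list companions Krt17, Sprr1a, Sprr1b and S100a9 had 5.47 or less on every L-LY29 array. Others of the list went the other way. S100a8 read 6.00, 6.78 and 7.32 on L-LY29, against 10.12 and 10.09 on H-LY29. Il1rn read 4.96, 4.97 and 4.89, against 6.32 and 6.21. In both of these, every L-LY29 array lay below both H-LY29 arrays (all probe sets, 39%).

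Genes of conjunctival and other non-keratinised epithelium gave 5 members of 15 measured. Krt13 read 9.68, 6.19 and 7.55 on L-LY29, against 3.59 and 4.06 on H-LY29, and its partner Krt4 read 7.30, 5.43 and 5.87, against 2.98 on both. Psca, a surface-anchored Ly6 protein, read 10.84, 8.75 and 9.39, against 3.93 and 3.14. Upk1b, a tetraspanin of urothelium and ocular surface that also marks mesothelium, read 8.78, 6.29 and 6.75, against 2.84 and 2.72. Aqp5, the water channel of secretory and corneal epithelium, read 11.56, 7.93 and 8.12, against 5.73 and 5.79. Every L-LY29 array exceeded both H-LY29 arrays in these 5 genes (all probe sets, 35.6%). Simple-epithelium keratins were not among the members, with Krt8 at 5.05 on each L-LY29 array and Krt18 at 3.17 to 3.57.

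The apical surface was represented by Muc4 and Ceacam1, 2 of 10 measured genes of the membrane mucin list. Muc4, a membrane mucin of cornea and conjunctiva, read 10.30, 6.45 and 7.84 on L-LY29, against 3.91 and 3.59 on H-LY29. Ceacam1, a cell adhesion glycoprotein, is named by 5 member probe sets, the most of any gene, and the one with the widest range read 8.35, 5.62 and 6.62, against 4.83 and 4.79. All 5 are of kinds (_s_at and _x_at) that may read several RNAs. A Ceacam1 probe set of another kind, no member, read 9.07, 8.12 and 8.65 on L-LY29, against 8.12 and 8.32 on H-LY29, with overlap. Muc1 and Muc16 were not members, at 5.40 to 5.68 and 3.00 to 3.16 on L-LY29. No goblet cell gene was a member (0 of 12 measured), and the goblet mucin Muc5ac read 5.47, 5.17 and 5.18 on L-LY29, against 3.40 and 3.03 on H-LY29. Tff1, a trefoil peptide of goblet cells, read 8.86, 8.83 and 8.81, against 4.94 and 5.17. Tff1 was thus higher in L-LY29 by 3.77 (standard error 0.10, limma adjusted p = 0.000102) but alike on the 3 L-LY29 arrays, unlike the members.

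Terminal differentiation gave 6 members of 48 measured genes, which are envelope and cytoplasmic genes of suprabasal cells. Asprv1, a retroviral-like aspartic protease of suprabasal epidermis, read 11.63, 8.63 and 10.13 on L-LY29, against 4.15 and 3.51 on H-LY29. Calml3, an epithelial calmodulin-like protein, read 10.86, 7.31 and 8.34, against 2.71 and 2.93. Scel, the envelope precursor sciellin, read 10.30, 7.22 and 8.22, against 4.84 and 4.60. The other 3 are Csta1 (a cystatin), Ppl (periplakin) and Cysrt1 (a cysteine-rich protein). Genes that define the cornified layer of skin did not share this: Lor read 4.89 to 5.41, Ivl 3.52 to 3.68, Flg 2.49 to 2.50, Krt1 4.99 and Krt10 6.09 to 6.32 over the L-LY29 arrays. Casp14, a caspase of cornifying cells, read 10.14, 9.99 and 9.98 on L-LY29, against 4.43 and 5.01 on H-LY29, with little difference between the L-LY29 arrays.

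Cell contacts and polarity were covered in part, with 2 members of 12 measured desmosome genes and 6 of 21 measured junction and polarity genes. Dsp (desmoplakin, the linker of desmosomes to keratin) read 9.49, 4.97 and 6.87 on L-LY29, against 4.72 and 4.20 on H-LY29, and Perp, a desmosomal tetraspan protein, read 11.43, 8.34 and 8.50, against 8.53 and 7.87. Perp overlapped between the groups, and so did the other member probe set of Dsp, at 8.78, 4.77 and 5.79 on L-LY29, against 5.61 and 4.78 on H-LY29. The 4 member claudins, which seal the space between cells, were Cldn4 (9.35, 6.26 and 7.29 on L-LY29, against 3.77 and 3.25 on H-LY29), Cldn7 (9.28, 5.45 and 6.20, against 4.53 and 3.12), Cldn23 (8.56, 4.39 and 5.25, against 4.87 and 3.36) and Cldn3 (7.70, 5.23 and 5.24, against 4.58 and 4.13). Of these Cldn23 overlapped between the groups. Epcam, the epithelial adhesion molecule, read 7.32, 5.64 and 5.72, against 5.49 and 3.91. Genes of these lists that are not members went different ways. Jup of the desmosome list read 7.89, 7.30 and 7.83 on L-LY29, against 10.06 and 9.98 on H-LY29. Crb3 of the junction list read 7.67, 7.10 and 7.10, against 5.35 and 4.90. The cargo protein Mal2 of apical transport, which stands in no list, had the widest range of all member probe sets, at 9.62, 4.84 and 6.06 on L-LY29, against 2.67 and 2.52 on H-LY29.

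Regulators and enzymes were fewer. Elf3, the epithelium-specific ETS factor, read 10.43, 7.39 and 8.15 on L-LY29, against 3.57 on both H-LY29 arrays, and with Trim29 it made 2 members of 23 measured transcription and splicing factors. The membrane-anchored and secreted serine proteases Prss8, Prss22 and Prss27, their inhibitor Spint2 and the serpin Serpinb11 made 5 of 31. Spint2 read 9.88, 7.07 and 7.35, against 5.45 and 5.42, and Prss22 read 9.34, 6.17 and 7.05, against 5.15 and 4.67. Pglyrp1, a peptidoglycan recognition protein and the only member of 29 measured defence genes, read 7.90, 5.52 and 6.56, against 6.15 and 6.73, with overlap. Gsta4, a glutathione transferase for lipid peroxidation products, read 11.82, 9.82 and 10.67, against 11.96 and 11.23, and overlapped as well.

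By lists, the median of L-LY29 replicate 1 minus replicate 2, which the rule used, was 2.17 log2 units for the corneal genes, 1.15 for membrane mucins, 0.84 for desmosomes, 0.58 for junctions and polarity, 0.46 for non-keratinised epithelium and 0.37 for proteases. It was between 0 and 0.16 for the other 8 surface epithelium lists, 0.36 for the astrocyte list and between -0.04 and 0.08 for the other 13 lists, beside 0 over all probe sets. Most surface epithelium lists therefore did not have the replicate pattern as a whole. In the L-LY29 minus H-LY29 comparison by limma, where 28.9% of all probe sets were called higher and 33.2% lower, the corneal list had 5 genes called higher and 1 lower of 10, the non-keratinised list 8 and 1 of 15, the mucin list 5 and 1 of 10, the wound keratin list 4 and 2 of 9, the basal list 4 and 3 of 14, the cornified list 23 and 7 of 48, the desmosome list 3 and 3 of 12, and the junction list 4 and 4 of 21. The goblet list had 5 and 0 of 12, the hemidesmosome list 2 and 6 of 11, the transcription factor list 3 and 1 of 23, the defence list 12 and 6 of 29, the protease list 8 and 8 of 31 and the lipid list 10 and 4 of 24. Members are part of these counts, and a call in this comparison does not mark a gene with the members' replicate pattern, as Tff1 and Casp14 show.

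**Figure D2:**
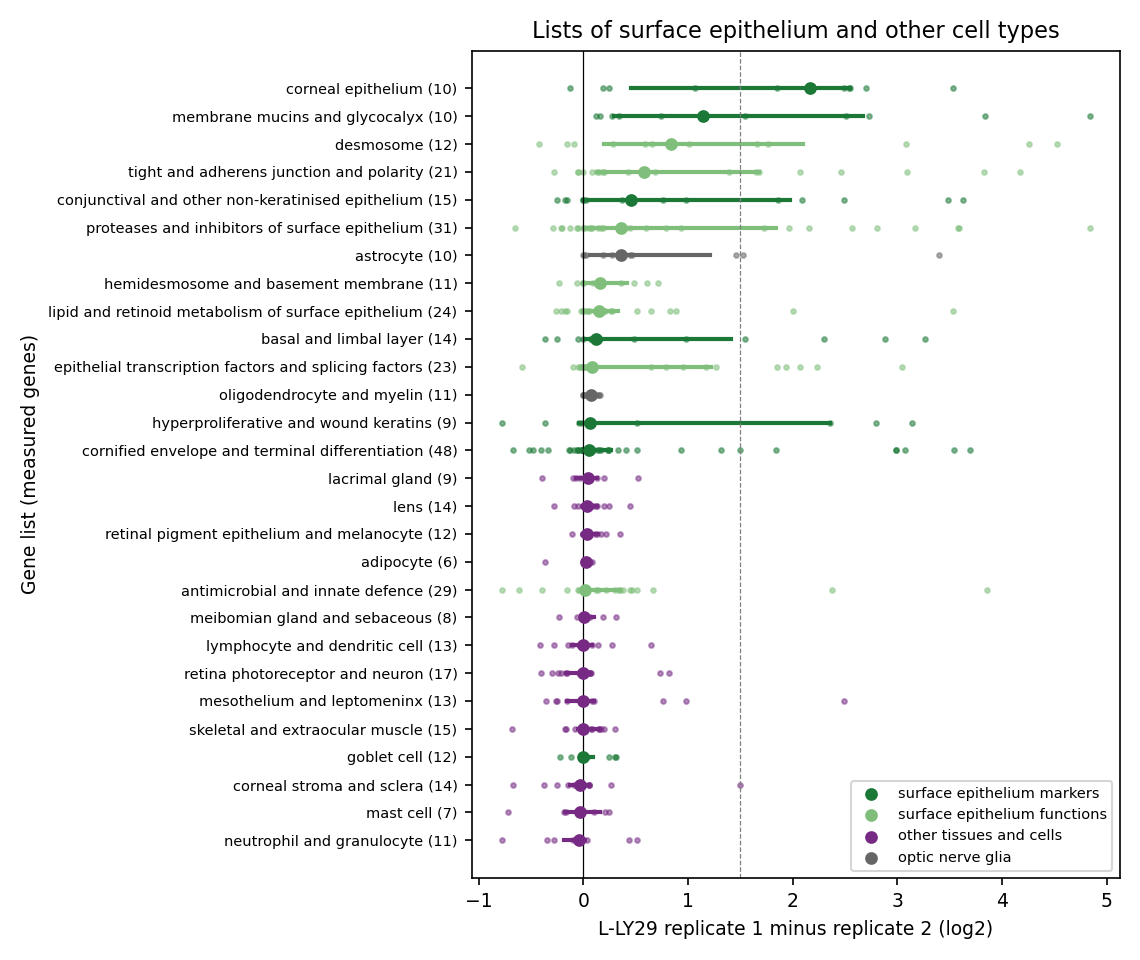
L-LY29 replicate 1 minus replicate 2 (horizontal axis, log2) for each measured gene (small points) of 28 gene lists (rows, with the number of measured genes), with the median (large point) and the quartiles (bar). The dashed line marks 1.5, the range in the rule. The corneal list has a median of 2.17, 8 of the 14 surface epithelium lists lie between 0 and 0.16, and the astrocyte list lies at 0.36.

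Of the 243 measured genes in the 14 surface epithelium lists, 203 are not members. Among these, 12 had the order and the range but an L-LY29 mean under 6. The furthest was Tmprss11a, a membrane serine protease, at 8.44, 3.60 and 4.22 on L-LY29, against 2.52 and 2.77 on H-LY29. Dsc2, a desmosomal cadherin, read 8.11, 3.85 and 4.40, against 3.85 and 3.49, and the defensin Defb1 read 8.02, 4.16 and 4.92, against 4.65 and 4.60. In these genes L-LY29 replicate 1 stood far above the other L-LY29 arrays, which were close to H-LY29 for Dsc2 and Defb1. The other 9, chosen like these after their values were seen, were Tmprss11e, Tmprss4, Serpinb5, Lypd3, Ehf, Ripk4, Cdh1, Dsc3 and Krt14.

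Lists of other tissues around the eye held few members. The meibomian, lacrimal, retina, pigment epithelium and melanocyte, lens, muscle, adipocyte, neutrophil, lymphocyte, mast cell and oligodendrocyte lists held 0. The stroma and sclera list held 1 of 14, Prelp, the mesothelium list 1 of 13, Upk1b, and the astrocyte list 1 of 10, Aqp4. The corneal stroma gene Kera read 2.86 to 3.32 on L-LY29 and 2.43 to 2.48 on H-LY29, and the summed linear signal of the stroma list was 11822 to 12241 on L-LY29, against 26465 and 28183 on H-LY29. The summed signal of the corneal epithelium list was 24277, 10633 and 15625 on L-LY29 replicates 1, 2 and 3, against 16440 and 15665 on H-LY29, where Clu and Tkt gave most of it. The summed signal of the non-keratinised list, which holds no such gene, was 7031, 1566 and 2079 on L-LY29, against 709 and 374 on H-LY29. The summed signal of the oligodendrocyte list was 79321, 76748 and 78760 on L-LY29 replicates 1, 2 and 3, against 64546 and 61863 on H-LY29. That of the astrocyte list was 28816, 25946 and 29138, against 28823 and 31044, lowest on L-LY29 replicate 2. The part of any tissue carried along with the nerves in the members' order was not tested.

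On the H-LY29 arrays the members fell into unlike groups. For 71 member probe sets (54.2%) every L-LY29 array lay above both H-LY29 arrays, where 35.6% of all probe sets did so. For 28 (21.4%, against 25.4% of all) the groups overlapped, and for 32 (24.4%, against 39% of all) every L-LY29 array lay below both H-LY29 arrays. The median H-LY29 signal was 4.397 in the first of these, 7.24 in the second and 10.24 in the third. The members that read low on H-LY29 were thus the largest of these groups, and the third was brighter there than on any L-LY29 array. The rule asked for an L-LY29 mean of at least 6, met by 16793 of all probe sets, and asked nothing of H-LY29. The values over all probe sets in this paragraph are therefore not like for like with those of the members. Without L-LY29 replicate 1, a setting added after seeing the data, the first count was 71 again, since replicate 2 is the lowest by rule, and the third was 42, where 36.7% of all probe sets lay above and 39.7% below in that setting. By limma, with 62.1% of all probe sets called, 48 members were called higher in L-LY29 and 14 lower, beside 28.9% and 33.2% of all probe sets. This comparison shares its L-LY29 arrays with the rule. The median difference was 1.71 over the members and -0.01 over all probe sets. Leaving out 1 H-LY29 array left 9 or 7 members called higher and 4 lower, and leaving out L-LY29 replicate 3 left 26 higher. Without L-LY29 replicate 1 or 2 the members called lower were 24 or 23.

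Each of the 40 member genes in surface epithelium lists was taken by its widest-ranging probe set. Of these genes 34 had every L-LY29 array above both H-LY29 arrays, 5 overlapped and 1 lay below. The shares of all probe sets were 35.6%, 25.4% and 39%. The values over all probe sets in this paragraph are not like for like with those of the 40 genes. The rule's L-LY29 mean of at least 6 favours genes above H-LY29, and the lists were written with earlier results known. The 34 include Dsp and Ceacam1, of which other probe sets overlapped. The median signal of the 40 genes was 9.46, 6.28 and 7.32 on L-LY29 replicates 1, 2 and 3, against 4.42 and 4.11 on the H-LY29 arrays. Of the 40, 17 had an H-LY29 mean within the range of the poly-A controls. Over all probe sets, 25.7% had such a mean. The 5 that overlapped were Cldn23, Sfn, Perp, Pglyrp1 and Gsta4. The 1 that lay below was Gjb2, a connexin of epithelial and leptomeningeal gap junctions, which read 7.06, 5.41 and 6.52 on L-LY29, against 10.99 and 10.47 on H-LY29.

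**Figure D3:**
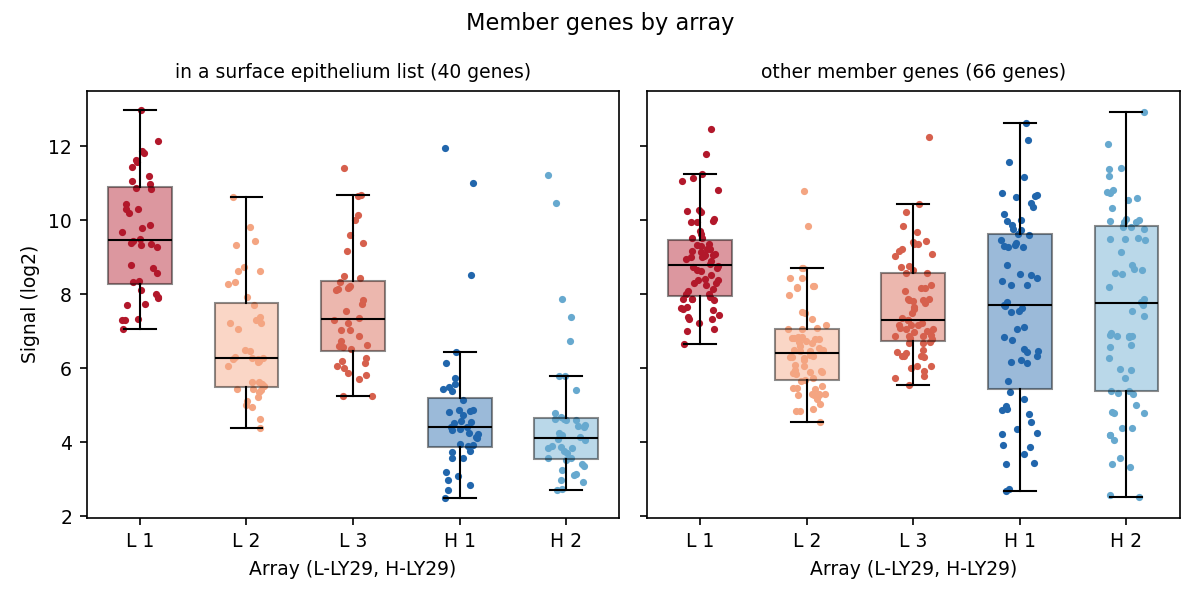
Log2 signal (vertical axis) of member genes on the 3 L-LY29 arrays (reds) and the 2 H-LY29 arrays (blues), with each gene as a point and boxes for the median and quartiles (whiskers to 1.5 times the interquartile range). The 40 genes of surface epithelium lists have H-LY29 medians of 4.42 and 4.11, and the 66 other member genes have H-LY29 medians of 7.70 and 7.76 with a wide spread.

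The 66 member genes outside those lists were mixed: 21 lay above, 21 overlapped and 24 lay below the H-LY29 arrays. Of all probe sets 35.6% lay above, 25.4% overlapped and 39% lay below, again not like for like, since the rule's L-LY29 mean was not asked of them. Among the 21 above were further genes known from epithelia, named here after their values were seen. Slc6a14, an amino acid transporter, read 8.77, 5.29 and 6.31 on L-LY29, against 2.73 and 2.59 on H-LY29. Plet1, a surface protein of epithelial progenitors, read 11.25, 8.72 and 9.83, against 3.42 and 4.07, and Aqp3, the glycerol and water channel of basal keratinocytes, read 8.39, 5.46 and 5.80, against 3.87 and 4.81. Rab25, a small GTPase of epithelial recycling endosomes, read 7.63, 6.07 and 6.49, against 4.35 and 4.20.

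The member genes that were brighter on H-LY29 had 1 gene of the astrocyte list, Aqp4, and the roles given here for the others are background on single genes. Aqp4, the water channel of astrocyte endfeet, read 8.70, 5.30 and 7.85 on L-LY29, against 9.40 and 9.77 on H-LY29. Mlc1, an astrocyte membrane protein of the same endfeet, read 9.53, 7.07 and 9.45, against 12.17 and 12.05. L-LY29 replicate 2 stood alone as the low array in both, with replicate 3 close to replicate 1 in Mlc1. S1pr3, a receptor for sphingosine 1-phosphate, read 7.87, 6.31 and 7.32, against 11.57 and 11.41, and Vasn, a transforming growth factor beta binding protein of smooth muscle, read 10.22, 8.43 and 9.40, against 11.18 and 11.37. Tagln, the smooth muscle protein transgelin, read 12.47, 10.79 and 12.24, against 12.64 and 12.93, the highest H-LY29 level of any member gene. Prelp, a connective tissue proteoglycan, read 7.87, 6.37 and 7.50, against 10.73 and 10.74. In all 6 genes both H-LY29 arrays were above every L-LY29 array. Further genes of this kind, named after their values were seen, were Atp1b2 (the glial beta subunit of the sodium pump), Chl1 (a neural cell adhesion molecule), Vcam1 (an endothelial adhesion molecule), Slc2a3 (a glucose transporter) and Adm (adrenomedullin). Slc1a2, also of the astrocyte list and no member, read 9.67, 8.14 and 9.78 on L-LY29, against 10.58 and 10.36 on H-LY29. It too had L-LY29 replicate 2 as the low array. Gfap and Glul varied less between the L-LY29 arrays, with Gfap at 11.42, 10.97 and 11.42 and Glul at 13.09 on each.

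The members also differed in where L-LY29 replicate 3 lay between the other 2 replicates. On a scale where 0 is the value of replicate 2 and 1 that of replicate 1, the median place was 0.31 for the 71 members above H-LY29, 0.42 for the 28 that overlapped and 0.80 for the 32 below. Replicate 3 was nearer to replicate 2 in 89 members, with a median H-LY29 signal of 4.72, of which 67 lay above H-LY29. It was nearer to replicate 1 in 42, with a median of 9.65, of which 28 lay below. Over the 131 members the place of replicate 3 and the mean H-LY29 signal correlated at r = 0.67 (Spearman's rho 0.59), as a description across probe sets that share the same 5 arrays and are not independent. The place of replicate 3 is built from the L-LY29 values that the rule used. Of the 40 genes in surface epithelium lists 2 had replicate 3 nearer to replicate 1, Krt16 and Gjb2, and of the 66 others 30 did.

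**Figure D4:**
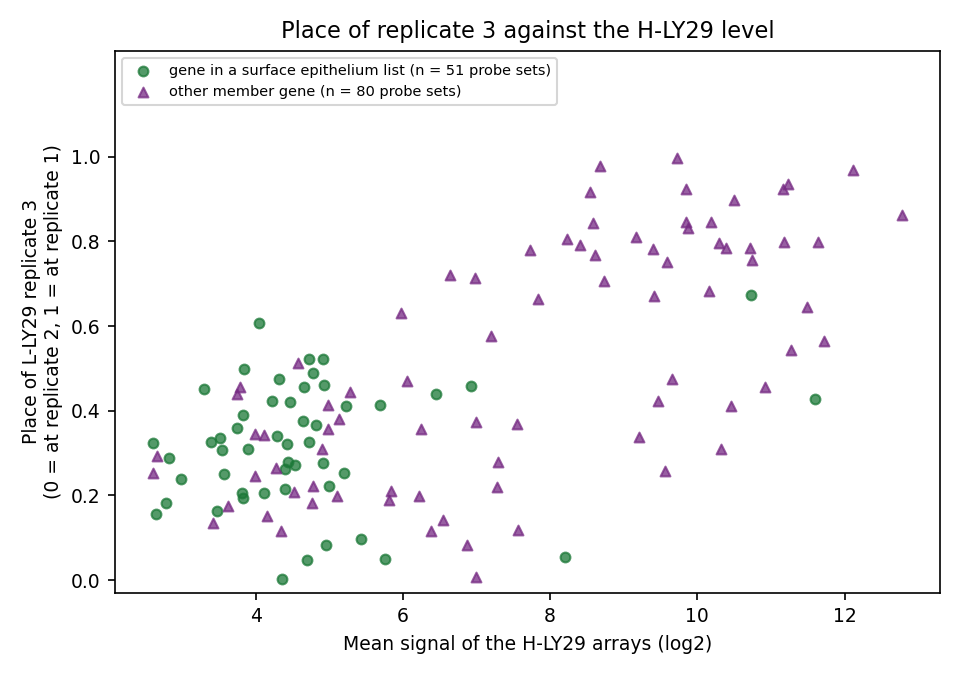
Place of L-LY29 replicate 3 (vertical axis, 0 at the value of replicate 2 and 1 at that of replicate 1) against the mean log2 signal of both H-LY29 arrays (horizontal axis) for each member probe set. The 51 probe sets of surface epithelium genes (circles) lie mostly at low H-LY29 signal and below 0.5, and the 80 others (triangles) reach to the upper right (r = 0.67 over all 131).

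Other probe sets of the same genes were a check on single probe sets, though they share the arrays. There were 61 for 40 of the member genes, of which 54 had L-LY29 replicate 1 above replicate 2 and 36 the whole order. Of the 31 with an L-LY29 mean of at least 6, 30 had replicate 1 above replicate 2 and 24 the whole order, with a median of 1.18 between replicates 1 and 2. Of the member probe sets 26 are of kinds (_s_at and _x_at) that may read several RNAs. Some member genes are neighbours on the chromosome: 16 stand in 7 runs with at most 2 coding genes between them, among them Krt6b, Krt6a and Krt5 and, on the same chromosome 15, Psca, Slurp1 and Lypd2. Krt13 and Krt15 adjoin on chromosome 11, Cldn4 and Cldn3 on chromosome 5, and Prss22 and Prss27 on chromosome 17.

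The thresholds of the rule cut through a continuous range. Just inside the range of 1.5 were Prelp (1.503) and Glipr2 (1.52), and just outside were Evpl (1.499), the envoplakin partner of periplakin, and a probe set of Sdc1 (1.48). Just inside the mean of 6 were Lratd1 (6.003) and Cldn3 (6.06), and just outside were probe sets of Slc1a2 (5.999) and Sema3b (5.95). Another 11 probe sets met the conditions but name several genes or none. A list of 84 entries that the study drew from these same arrays held 15 of the member genes (17.9% of its entries and 14.2% of the member genes), Krt6b, Asprv1, Psca, Elf3 and Calml3 among them, and is no independent evidence.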

How the data were processed

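RNA of cultured optic nerves was measured on 5 arrays. The authors' methods name biotin-labelled cRNA, Affymetrix GeneChip Operating Software for the images and MAS-5 normalisation in GeneSpring. Whether MAS-5 gave the deposited log2 signals of 45101 probe sets was not settled, and no source used here gives a scaling target. The authors' deposited log2 values were used with no further normalisation. Probe sets were named by GEO's platform annotation: 34958 name 1 gene, 932 several and 9211 none. Doses were compared over all 34958, with no filter, by limma 3.58.1 in R 4.3.3 (intensity trend, two-sided, Benjamini-Hochberg adjusted p under 0.05), as L-LY29 minus H-LY29. In this comparison dose and the poly-A control difference fall together. The script was tested on simulated data. Each array was 1 sample, so a p-value reflects the spread of these arrays and nothing wider, and their small number limits precision.

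The members, the 28 gene lists and the rule for named genes were chosen with earlier results of these data known. The rule named the 5 given markers, the 10 member genes with the widest range, up to 4 members and 3 other genes of each surface epithelium list, genes beside each threshold, the 5 members highest and the 5 lowest on H-LY29, and up to 2 genes of each other cell type. Not every gene so named is printed. Left out are, among others, Dst, Cd151, F11r and Fabp5, which are bright on L-LY29 and not members. Some printed genes of low signal, such as Trp63, Col17a1, Krt8 and Lor, are outside the rule. The widest-ranging probe set stood for a member gene and the brightest for any other. Alternatives were other thresholds of the rule, a filter at the 40th percentile, a floor at the 10th, quantile normalization, equal array medians, 1 probe set a gene, no intensity trend, a replicate block and each array left out. No column of another sample was present.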

Additional observations from a re-analysis of the deposited data

How the results depend on the processing

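The number of arrays limits these results. With a range of at least 1 or 2 in the rule the members numbered 210 or 86. Other thresholds of the mean, quantile normalization and equal array medians gave 93 to 156. Equal array medians moved the median difference of all probe sets to 0.21 and the probe sets called higher in L-LY29 to 15234, and higher calls to 60.4% of all calls, against 46.5%. With 1 probe set a gene, fewer probe sets were tested, and 5299 were called higher and 6479 lower, with 30 members called higher. The members' median H-LY29 signal was 5.81 in this setting, which keeps fewer member probe sets. Leaving out 1 array at a time gave 8446 to 10014 probe sets called higher and 10165 to 11550 lower, 7 to 56 members called higher and 4 to 24 lower, a median difference of members of 0.99 to 2.13, and a median H-LY29 signal of 5.39 to 5.58. The smallest counts of members came without an H-LY29 array, and the cause was not tested. Without L-LY29 replicate 1, the members below both H-LY29 arrays numbered 42 and those above 71. The replicate numbers share only a number (correlations of deviations 0.01 and 0.03). With replicate as a block, 7574 probe sets were called higher and 9512 lower, 38 members higher and 11 lower, with a median difference of 1.97. Pglyrp1 turned to -0.40 without L-LY29 replicate 1 and to -0.07 without H-LY29 replicate 1, and was at most 0.79, without L-LY29 replicate 2. Of the other comparisons of named member genes, 454 kept direction and side of the threshold, 70 lost the call and 28 gained it.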
